A study of Homo sapiens with 8 samples.

Results

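The 4 libraries made at day 8 from K562 cells, 4 of 8 in all, are described here by how much they used cryptic 3′ splice sites. K562 is an established human leukaemia line with erythroid and megakaryocytic features. The labels give SF3B1 wild type (WT) or SF3B1 K700E, 4 or 8 days and replicate 1 or 2, so that each of the 4 groups held 2 libraries; the treatment text, the same for all 8, says that doxycycline at 1 µg/ml induced expression of the modified allele. Total RNA was sequenced, and the values analysed are counts of reads across splice junctions. Whether replicates came from separate cultures, and whether each genotype was 1 clone, is not given in the labels, so the spread between replicates may be technical. The day 8 libraries were chosen by their time label and then parted by 1 measured value, the share of TMEM14C reads that used its cryptic acceptor. A library at 30% or more is called cryptic-high and a library under 30% cryptic-low. This parting departs from the genotype labels: the libraries labelled WT replicate 2 and K700E replicate 2 were cryptic-high, and the libraries labelled WT replicate 1 and K700E replicate 1 were cryptic-low. Since a measured value made the parting, differences between cryptic-high and cryptic-low libraries are given as values and orders of single libraries, with no mean, no test and no model. Tests were run by label only.

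SF3B1 is the largest subunit of SF3b, the part of the U2 small nuclear ribonucleoprotein that holds the intron's branch point while the 3′ splice site, or acceptor, is being chosen. Hotspot substitutions such as K700E are known to let the spliceosome use cryptic acceptors that lie a short way upstream of the regular one, often behind a different branch point. The exon then starts early and carries a short piece of intron, which can keep the reading frame or shift it and expose the transcript to nonsense-mediated decay. TMEM14C, an inner mitochondrial membrane protein that helps move haem precursors, is a well known target.

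At TMEM14C the cryptic acceptor lies at position 10724555 of chromosome 6 (hg38, plus strand), 14 nt upstream of the regular acceptor at 10724569, in the 5′ UTR, and both are annotated in GENCODE release 29. In the labelled WT replicate 1 library at day 8, 81 of 1941 unique reads leaving the donor used it, which is 4.17% (95% Wilson interval 3.37 to 5.16%). In labelled WT replicate 2 the share was 70.7% (68.3 to 73.1%), from 986 of 1394 reads. In labelled K700E replicate 1 it was 11.2% (9.55 to 13.0%), and in labelled K700E replicate 2 it was 70.3% (67.9 to 72.5%). The values nearest the threshold of 30% were thus 70.3% above it and 11.2% below it. At day 4 the same share followed the labels, at 3.63% and 4.78% in the WT libraries and 59.3% and 56.8% in the K700E libraries. Intervals here and below cover counting error within a single library only. The reads carry no molecular identifiers, so duplicate reads count as separate and the intervals may be too narrow.

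The sequences around 6 of the acceptors described below show how close the competing sites stand. Each run is 30 bases, 5′ to 3′ on the transcript strand, from GENCODE release 29 transcripts (GRCh38) that hold the intron piece as exon. Capitals mark the AG that ends the intron at the cryptic acceptor and the AG of the regular acceptor. The bases between the first AG and the end of the run are the piece that cryptic use adds to the exon.
TMEM14C (chr6:10724540-10724569, plus strand): actacctctgatccAGcttgttttctgcAG
GCC2 (chr2:108486481-108486510, plus strand): ctaaagctaaatttaaAGatttacccccAG
DYNLL1 (chr12:120496386-120496415, plus strand): caaccccttaccccAGgccttgcccactAG
ZDHHC16 (chr10:97455630-97455659, plus strand): acccaccAGtcttcgcccctcttttcttAG
METTL5 (chr2:169812507-169812536, minus strand): ttttatccttAGgtggcttttgttttacAG
ERGIC3 (chr20:35556943-35556972, plus strand): gccctggcccAGgctcccctcccaccccAG
For 2 further acceptors the transcripts held the added piece but not the bases before it, and capitals mark the regular AG alone.
DLST (chr14:74889878-74889896, plus strand): cctttgattgtcttttcAG
SEPTIN6 (chrX:119625380-119625396, minus strand): ctcttactgttttacAG

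The acceptors described at day 8 were chosen from the day 4 libraries, by label, without any day 8 library. Of 69838 junctions tested at day 4, edgeR called 326, which is 0.467%, by an adjusted p under 0.05 where mean use also moved by 5 points or more; 250 (0.358%) were higher in K700E and 76 (0.109%) were lower. The split depended on the fit: limma called 156 higher and 139 lower on the same junctions, and edgeR without K700E replicate 1 called 57 and 53. Use is the share of a donor's unique reads that go to one acceptor. Among the 250, 150 lay 1 to 50 nt upstream of the donor's regular acceptor, the annotated one with most reads in WT at day 4, and are called near-upstream acceptors. Their distances ran from 9 to 37 nt with a median of 17 nt, and 144 lay 10 to 30 nt upstream. In 141 the exon begins in coding sequence; the added piece shifts the frame, not being a multiple of 3 nt, in 75 of these and keeps it in 66. TMEM14C was set aside, since the parting used it, which left 149 acceptors in 144 genes, of which 146 had at least 20 donor reads in each of the 8 libraries.

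Over these 146 near-upstream acceptors the 4 day 8 libraries fell into a low and a high pair that crossed the labels. The median use was 0% in labelled WT replicate 1 and 14.8% in labelled WT replicate 2. It was 0.912% in labelled K700E replicate 1 and 16.6% in labelled K700E replicate 2. At day 4 the medians were 0.381% and 0.406% in WT and 17.1% and 14.8% in K700E. Each day 8 library was set against both day 4 groups acceptor by acceptor: labelled WT replicate 2 was nearer the K700E mean at 127 of 146, labelled K700E replicate 2 at 135, labelled WT replicate 1 at 2 and labelled K700E replicate 1 at 0. On a scale where 0 is the WT mean and 1 the K700E mean of day 4, the median positions were -0.01 for labelled WT replicate 1, 1.11 for labelled WT replicate 2, 0.01 for labelled K700E replicate 1 and 0.97 for labelled K700E replicate 2. Both cryptic-high libraries were above both cryptic-low libraries at 141 of the 146, and both were below at 0. Over all 59328 acceptors measured at day 8 that order held for 18.4% above and 17.4% below. Over those lying 1 to 50 nt upstream it held above for 20.9% to 63.1%, by distance. The parting itself came from this contrast, so nothing is read from these shares.

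**Figure D1:**
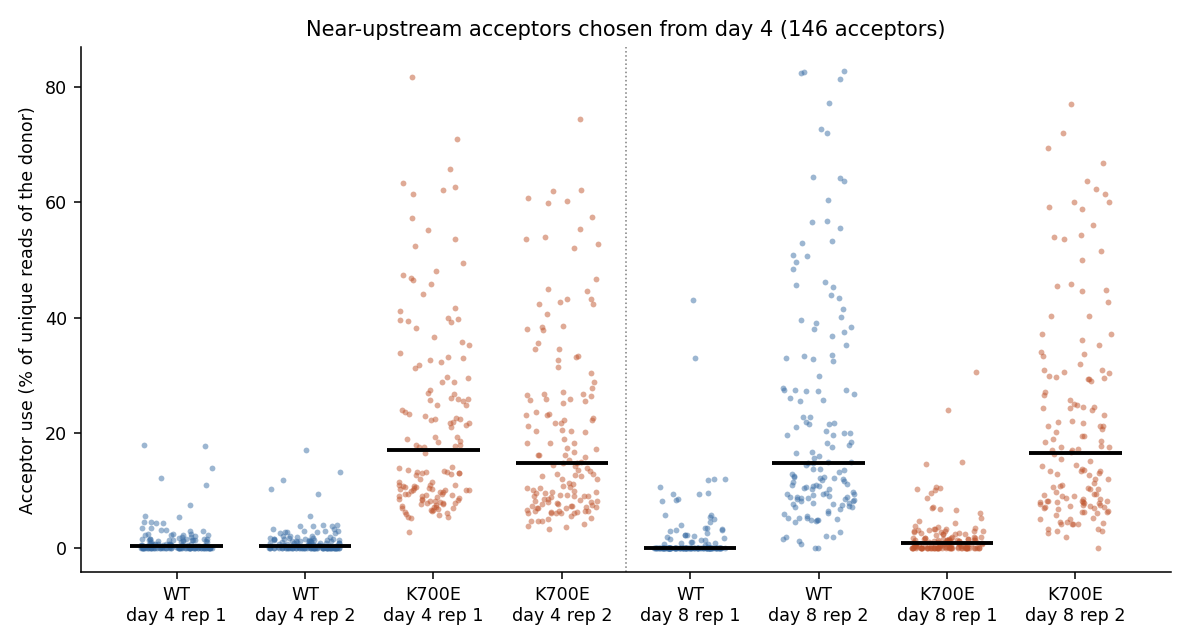
Use of 146 near-upstream acceptors (percent of the donor's unique reads, y axis) in each of 8 libraries (x axis, by label), 1 point per acceptor, with the median as a black bar; blue is labelled WT and orange labelled K700E. At day 8 the medians of 14.8% and 16.6% belong to replicate 2 of each label, and those of 0% and 0.912% to replicate 1.

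Among these 146 acceptors, libraries with the same label differed at more acceptors than libraries on the same side of the threshold. The 146 were chosen for a gap at day 4. The same counts were not made over all acceptors, so they do not describe the libraries as a whole. Between the labelled WT libraries the 95% Wilson intervals did not overlap at 134 acceptors, 133 of them higher in replicate 2, and the median difference was 13.7 points. Between the labelled K700E libraries replicate 2 was higher beyond the intervals at 133 acceptors and replicate 1 at 0, with a median difference of 14.4 points. Across labels, the cryptic-high pair overlapped at 112 of 146, with labelled WT replicate 2 higher beyond the intervals at 21 and labelled K700E replicate 2 at 13. The cryptic-low pair overlapped at 120, with labelled K700E replicate 1 higher at 19 and labelled WT replicate 1 at 7. For comparison, the K700E replicates of day 4 overlapped at 131 and the WT replicates of day 4 at 144.

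**Figure D2:**
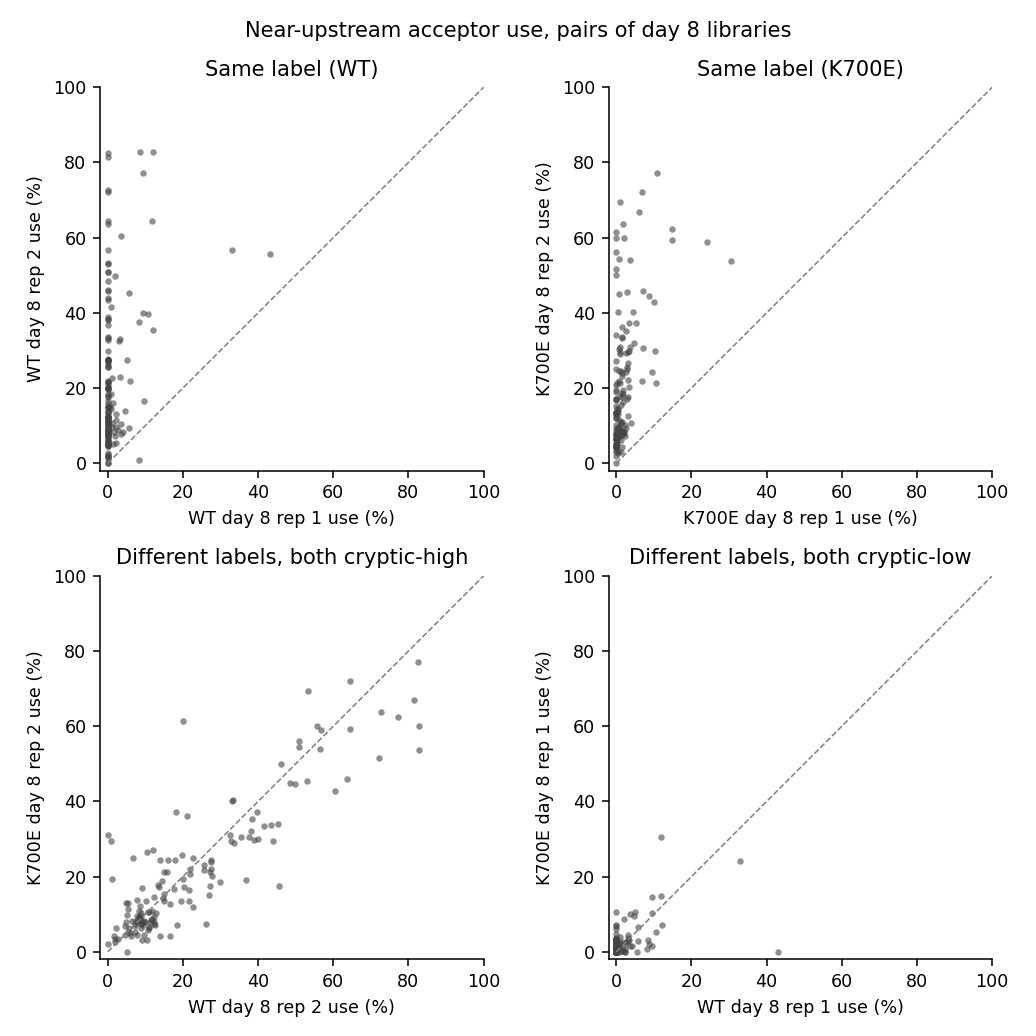
Use of the 146 near-upstream acceptors (percent) in 4 pairs of day 8 libraries, 1 point per acceptor, with the line of equality dashed. Points lie above the line in nearly all cases in both same-label panels, and around the line in the panel of the cryptic-high pair, where intervals overlapped at 112 of 146.

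The cryptic-low libraries were not identical to each other. Labelled WT replicate 1 had no read at 105 of the 146 acceptors and labelled K700E replicate 1 had none at 44. Labelled K700E replicate 1 was above both WT libraries of day 4 at 70 acceptors and labelled WT replicate 1 at 26. The file contents differ in the same direction, by junctions outside the annotation used at mapping (GENCODE release 22). Those with a single read made up 3.55% and 4.94% of such junctions in the labelled WT libraries of day 8. They made up 34.2% and 32.0% in the labelled K700E libraries of day 8 and 23.7 to 34.9% at day 4. The part of this in the count of acceptors at 0, and in the values of 0% given below, was not tested. A junction absent from a file was taken as 0 reads.

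Known hotspot targets showed the pattern gene by gene. Of 30 listed targets, 23 had a near-upstream acceptor that was tested at day 4 and 16 of those were called higher in K700E. Besides TMEM14C, 22 were measured in all libraries. In 19 of these both cryptic-high libraries lay above both cryptic-low libraries, and in 0 the order was reversed. The 18.4% over all acceptors is not a matched background, since it includes the regular acceptors, at 12.7%. Over all acceptors measured 1 to 50 nt upstream, the share ran from 20.9% to 63.1% by distance, as given below. Nothing is read from these shares. The values that follow are in the order labelled WT replicate 1, WT replicate 2, K700E replicate 1 and K700E replicate 2, all at day 8.

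Several targets are enzymes of central metabolism and translation. DLST, the succinyl-transferring subunit of the 2-oxoglutarate dehydrogenase complex, used its acceptor 19 nt upstream (chromosome 14, position 74889877) at 0%, 56.6%, 3.57% and 54.0%. The 0 rests on 302 donor reads and has an upper Wilson bound of 1.26%. That bound holds only if junctions with few reads were kept in this file, which was not tested. DPH5, a methyltransferase of diphthamide synthesis on elongation factor 2, used an unannotated acceptor 14 nt upstream (chromosome 1, position 100992755) at 0%, 72.7%, 1.78% and 63.8%. In both genes the lowest cryptic-high value was more than 50 points above the highest cryptic-low value. SEPSECS, which makes selenocysteine on its tRNA, was at 43.1%, 55.6%, 0% and 60% for an acceptor 23 nt upstream. Here labelled WT replicate 1 stood near the cryptic-high pair, on 51 donor reads. PPOX, the haem synthesis enzyme that oxidises protoporphyrinogen, read 0%, 33.7%, 0% and 25.6% at an acceptor 32 nt upstream, which was not called at day 4 (adjusted p = 0.847, edgeR). TPP2, a large cytosolic peptidase, read 0%, 43.5%, 1.55% and 33.7% at 14 nt. METTL5, the methyltransferase of 18S ribosomal RNA, read 0%, 21.6%, 1.88% and 16.4% at the site printed above. For these last 3 the cryptic-low pair stayed under every cryptic-high value.

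Signalling genes followed. MAP3K7 encodes TAK1, a kinase upstream of NF-κB and JNK. Its unannotated acceptor 20 nt upstream (chromosome 6, position 90560235) was used at 9.42%, 77.2%, 14.7% and 62.4%. The cryptic-low values lay near the 12.2% and 9.49% of WT at day 4, so this site has a basal level and the 2 pairs still did not overlap. PPP2R5A, a regulatory B subunit of protein phosphatase 2A, used its acceptor 13 nt upstream at 0.946%, 18.5%, 2.39% and 7.21%. Its 2 cryptic-high values differed from each other by more than the cryptic-low values did. ORAI2, a calcium channel of the plasma membrane, read 0%, 80.3%, 6.79% and 65.8% at an acceptor 23 nt upstream in the 5′ UTR. At day 4 its K700E libraries read 91.7% and 32.0%, and the acceptor was not called (adjusted p = 0.483, edgeR).

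Membrane traffic and cytoskeleton genes were alike in order and differed in level. GCC2, a golgin that tethers vesicles, used the site printed above at 0%, 53.3%, 0.862% and 69.5%. ZDHHC16, a protein palmitoyltransferase, read 10.6%, 39.7%, 5.26% and 37.3%. ERGIC3, a cargo receptor between endoplasmic reticulum and Golgi, read 0.510%, 15.04%, 1.18% and 15.5%. The ERGIC3 pairs are the closest in level among these, with 1376 to 1765 donor reads in each library. SEPTIN6, a filament-forming GTPase, read 3.21%, 33.0%, 4.34% and 40.2% at 17 nt. OXA1L, the mitochondrial inner membrane insertase, read 0%, 45.7%, 1.46% and 17.6% at 14 nt. Of the cryptic-high pair, labelled WT replicate 2 was the higher at OXA1L, and the K700E libraries of day 4 (18.6% and 14.4%) lay close to labelled K700E replicate 2. ENOSF1, whose gene lies antisense to the thymidylate synthase gene, read 2.01%, 49.7%, 8.77% and 44.6%. TTI1, a partner of PIKK family kinases, read 0%, 18.3%, 3.39% and 37.2%, and ZNF91, a zinc finger repressor of retroelements, 0%, 36.8%, 0% and 18.99%. All 4 of these genes kept the cryptic-high pair above the cryptic-low pair.

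A few listed targets did not part the libraries in this way or did so by little. SERBP1, an mRNA-binding protein, read 22.9%, 17.5%, 19.96% and 22.6% at an annotated acceptor 45 nt upstream, and the pairs overlapped. BRD9, a bromodomain subunit of the non-canonical BAF complex, had reads at its tested acceptor only in labelled K700E replicate 2 among the day 8 libraries (1.82%). STAU1, a double-stranded RNA binding protein, read 15.5%, 26.3%, 14.98% and 24.5%, and UBA1, the main ubiquitin-activating enzyme, 0%, 0.395%, 0% and 1.23%. For 7 listed genes (ANKHD1, SNRPN, DVL2, CRNDE, COASY, ADAM12 and ARMC9) no near-upstream acceptor was among those tested. COASY and CRNDE had acceptors tested at other distances, given below.

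**Figure D3:**
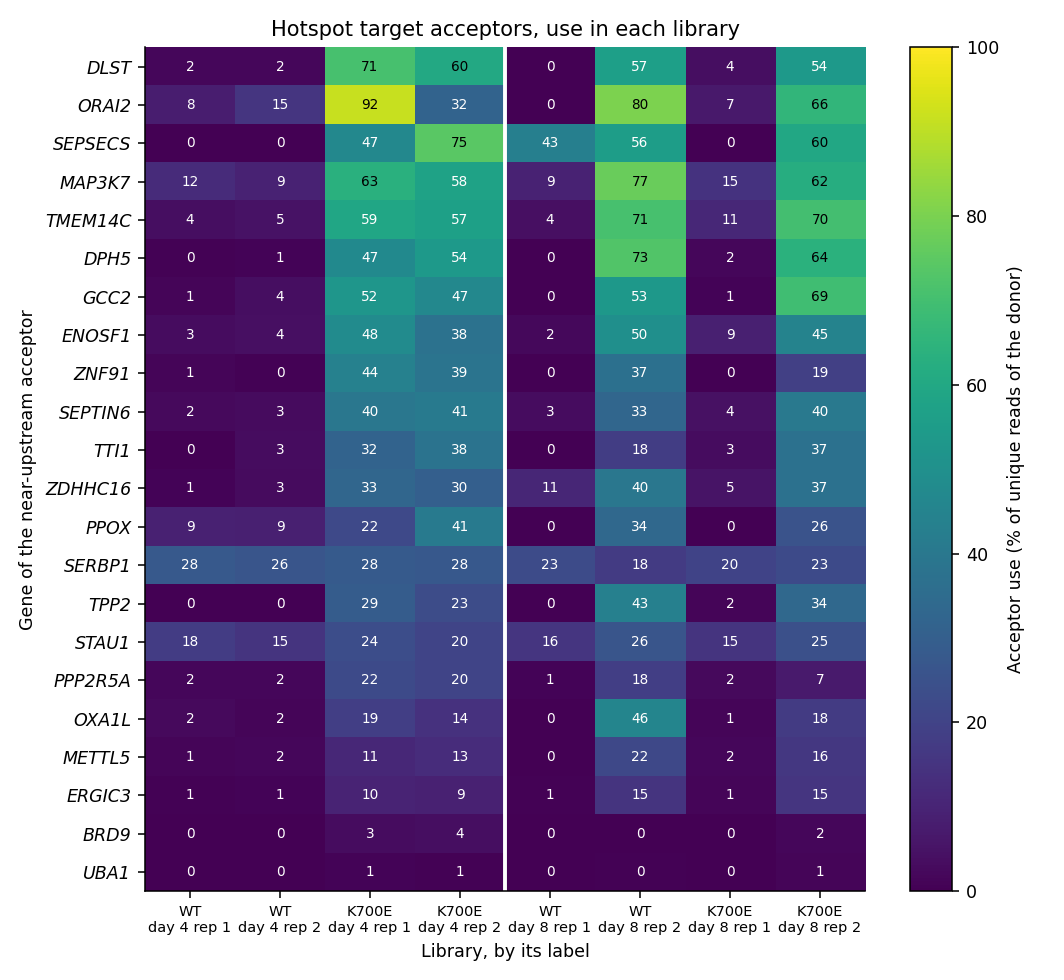
Use (percent of the donor's unique reads, colour and printed whole numbers) of the near-upstream acceptor of 22 hotspot targets (rows, ordered by K700E use at day 4) in 8 libraries (columns, by label). In most rows the columns of WT day 8 replicate 2 and K700E day 8 replicate 2 stand out from the replicate 1 columns; the SERBP1 row does not part, and SEPSECS is also high in WT day 8 replicate 1.

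The near-upstream acceptors with the widest rise at day 4 gave the same order in genes outside that list. MFSD9, a transporter family member, used an acceptor 17 nt upstream at 0%, 82.4%, 10.7% and 77.1%. DYNLL1, a dynein light chain, used the 5′ UTR site printed above at 11.8%, 64.3%, 14.96% and 59.3%, on 2193 to 5710 donor reads, the deepest coverage of these genes. VPS9D1-AS1, a noncoding RNA, read 0%, 81.5%, 6.14% and 66.9% at 15 nt. In each of these the cryptic-high values lay at 59.3% or more and the cryptic-low values at 14.96% or less. MYL4, an atrial myosin light chain, read 0%, 52.9%, 2.73% and 45.5%. CEP135, a centriole protein, read 0%, 50.8%, 0% and 56.1%, and ZNF548, a zinc finger protein, 0%, 64.5%, 6.78% and 72.0%. SH2D2A, a T cell adaptor, read 3.52%, 60.4%, 10.1% and 42.8%, and NDRG3, of the NDRG family, 5.53%, 45.3%, 0% and 34.0%. ADGRV1, a very large adhesion receptor, has such an acceptor at 2 donors: 10 nt upstream it read 8.63%, 82.7%, 1.97% and 60%, and 21 nt upstream 0%, 63.6%, 7.17% and 45.8%. The ADGRV1 donors had as few as 20 reads in a cryptic-high library, and the widest half-interval among named acceptors was 19.7 points.

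At 5 of the 146 acceptors, singled out after their values were seen, the cryptic-high pair was not above the cryptic-low pair. TUBGCP3, of the γ-tubulin ring complex, read 9.63%, 16.7%, 1.48% and 4.26%, so that labelled WT replicate 1 lay above labelled K700E replicate 2. EPG5, an autophagy tether, read 0%, 0%, 1.05% and 30.99%, and the 0 of labelled WT replicate 2 rests on 27 donor reads. DLG1, a membrane scaffold, read 8.33%, 0.769%, 3.09% and 29.5%. At EPG5 and DLG1 the value of labelled WT replicate 2 was the odd member of the cryptic-high pair. CEP70, a centrosomal protein, read 0%, 0%, 0% and 2.00%, and LRRCC1, also centrosomal, 0%, 5.13%, 0% and 0%.

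Acceptors called higher at day 4 that are not near-upstream were described in the same way. Of 94 measured, 84 had both cryptic-high libraries above both cryptic-low libraries and 0 the reverse, beside the 18.4% and 17.4% over all acceptors. The 18.4% is not a matched background, since it includes the regular acceptors. Over acceptors 51 to 100 nt upstream the share above was 28.2%. The parting came from this contrast, so nothing is read from these shares. COASY, which carries out the last steps of coenzyme A synthesis, read its exon from 256 nt upstream at 16.1%, 55.7%, 11.1% and 78.6%. CRNDE, a noncoding RNA, used an acceptor 83 nt downstream of the regular one at 24.5%, 78.5%, 25.4% and 75.5%. MTERF2, a mitochondrial termination factor family member, used an acceptor 10 nt downstream at 38.0%, 100%, 25% and 90%, and ZC3H11A, an mRNA export factor, an acceptor 388 nt upstream at 0%, 88.2%, 19.7% and 81.8%. In these 4 genes, too, replicate 2 of each label was high.

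Of the 76 acceptors called lower at day 4, 70 are annotated and 75 were measured. The median position of the 76 was 440 nt downstream of the regular acceptor. Median use of the 75 in the WT libraries of day 4 was 15.5% and 15.9%. Among these, both cryptic-high libraries lay below both cryptic-low libraries at 37, above at 5, and overlapped at 33, beside 17.4% below and 18.4% above over all acceptors and 22.8% below over regular acceptors. Here, too, nothing is read from the shares. The examples named here are regular acceptors and do not stand for the whole set. Those of DLST and CRNDE share a donor with an acceptor described above as higher. The regular acceptor of DLST, the site that loses reads to the cryptic one, was used at 100%, 42.04%, 93.7% and 44.7%. That of CRNDE was used at 75.5%, 3.40%, 54.2% and 11.7%, and that of GEN1, a Holliday junction resolvase, at 100%, 25.7%, 48.8% and 8.22%. The cryptic-low libraries themselves were nearer the K700E mean of day 4 at 47 (labelled WT replicate 1) and 46 (labelled K700E replicate 1) of the 75 acceptors, against 70 and 71 for the cryptic-high libraries.

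The order was most frequent at acceptors 10 to 19 nt upstream of the regular one. With all day 8 acceptors measured, chosen or not, and as a description, both cryptic-high libraries were above both cryptic-low ones at 63.1% of 206 acceptors lying 10 to 14 nt upstream, 61.4% of 573 at 15 to 19 nt, 54.3% of 481 at 20 to 24 nt and 45.1% of 215 at 25 to 30 nt. At 1 to 9 nt upstream the share was 20.9%, and at 31 to 50 nt it was 35.3%. Downstream of the regular acceptor, within 100 nt, it ran from 18.4% to 31.9%. The regular acceptors themselves were above in 12.7% and below in 22.8%. The acceptors within 100 nt of a regular one include those called at day 4. A junction needed 5 reads in at least 2 day 8 libraries, so acceptors read in the cryptic-high pair alone are included. The parting came from this contrast, so nothing is read from these shares or from their peak.

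**Figure D4:**
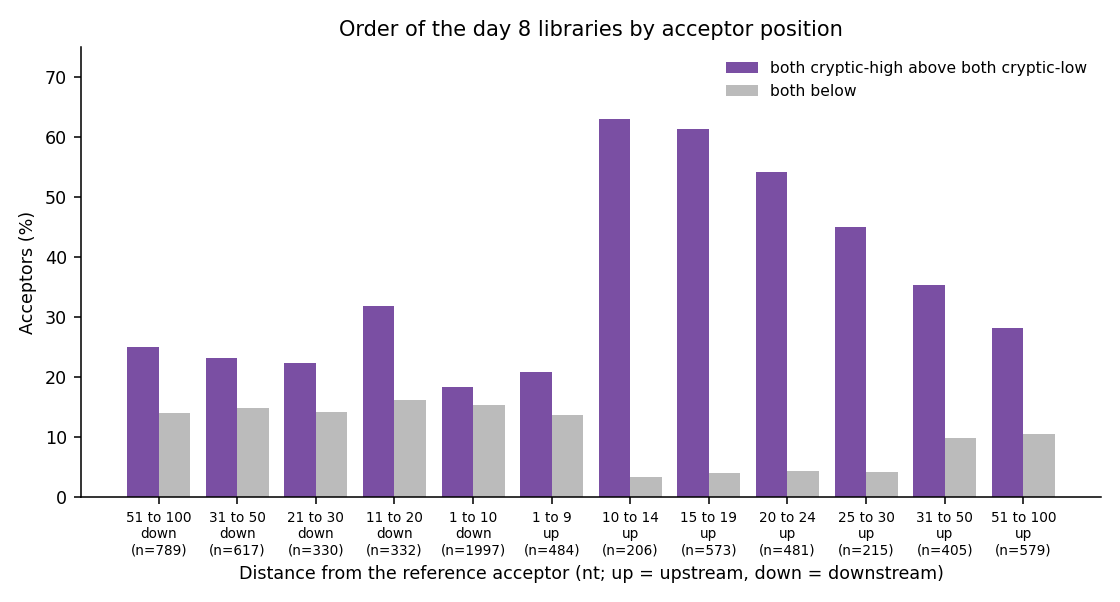
Share of acceptors (percent, y axis) at which both cryptic-high day 8 libraries were above (purple) or below (grey) both cryptic-low libraries, by distance from the regular acceptor (x axis, nt; number of acceptors in brackets). The purple bars peak at 63.1% for 10 to 14 nt upstream and stand at 20.9% for 1 to 9 nt upstream. Acceptors read in the cryptic-high pair alone are included, and nothing is read from the peak.

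A wide gap, at least 10% in both cryptic-high libraries and at most 2% in both cryptic-low libraries, was seen at 78 near-upstream acceptors in 77 genes, and the reverse gap at 0. With the read filter of the day 8 fit it was 76 of 2364 near-upstream acceptors (3.21%), beside 166 of all 59328 acceptors (0.280%), where the reverse gap was seen at 31 (0.0523%). These limits were chosen after the values were seen, and nothing is read from the shares. Of the 78, 44 were called higher at day 4, 19 were tested there but not called, and 15 were not tested; in 76 the K700E mean of day 4 was above the WT mean. GENCODE release 29 lacks 66 of the 78 acceptors.

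The sequence of the added piece could be read for 58 of the 150 near-upstream acceptors, those that some annotated transcript keeps. All 58 pieces ended in AG, and their median pyrimidine share was 70.5%. Among 2232 near-upstream acceptors with an adjusted p of 0.05 or more, 1217 could be read, with a median of 59.5%. The 33 bases before the cryptic AG were covered for 37 of the called acceptors, with a median adenine share of 21.2%, and for 570 of the others, with 18.2%. The readable pieces are a subset set by the annotation, and the difference was not tested.

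By label, the day 8 libraries gave no acceptor call. edgeR called 0 of 63314 junctions (0%) between labelled K700E and labelled WT, with a lowest adjusted p of 1.00, 1765 at an unadjusted p under 0.05, and limma called 0 with 1071. For TMEM14C the label difference was 3.27 points (adjusted p = 1.00, edgeR), against gaps of over 50 points between replicates. With any 1 of the 4 libraries left out edgeR still called 0; at an unadjusted p under 0.05 it gave 3714 without labelled WT replicate 1, 8430 without labelled WT replicate 2, 22 without labelled K700E replicate 1 and 45 without labelled K700E replicate 2. The difference between the label effects of the 2 days, tested over all 8 libraries, gave 0 of 94959 calls (0%, edgeR, 5627 at an unadjusted p under 0.05), and limma gave 0 with 7541. Without labelled WT replicate 1 of day 8 this count was 38 and without labelled WT replicate 2 it was 3. An exact permutation test of 2 libraries against 2 cannot go below p = 0.333, so no such test is given for the library medians.

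The STAR logs name the folder in which each library was aligned. Both labelled WT libraries of day 8 were aligned in a folder named for February 2021, and both labelled K700E libraries of day 8 in one named for March. The 4 day 4 libraries were in one named for April. The STAR version was the same for all. Whether a setting or a later filter differed, given the low single-read shares of the labelled WT libraries of day 8, was not tested. At day 8 label and folder therefore cannot be told apart, and each of these folders held 1 cryptic-high and 1 cryptic-low library. Day and folder cannot be told apart either, which limits every comparison of day 8 with day 4 values. Depth did not follow the parting: unique junction reads were 71039050 and 61234203 for the labelled WT libraries and 49338071 and 60953200 for the labelled K700E libraries, with 60922615 to 77750812 at day 4.

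Gene levels were taken as unique reads over a gene's annotated introns, as CPM (counts scaled to a common library size of reads in gene sums, with TMM factors), so they measure spliced transcripts only. In bulk samples fewer cells of a kind and less RNA per cell cannot be told apart. Genes described at day 8 were again chosen from the day 4 libraries: edgeR called 74 of 13991 genes (0.529%), 32 higher in K700E (0.229%) and 42 lower (0.3%). Of the 32, 26 had both cryptic-high libraries above both cryptic-low ones at day 8, 1 the reverse, and 5 overlapped, beside 21.2% above over the 13990 genes of day 8. Of the 42, 29 had both below, 2 above, and 11 overlapped, beside 18.5% below. As with acceptors, the parting came from this contrast and nothing is read from these shares. Labelled WT replicate 2 was nearer the K700E mean of day 4 at 69 of the 74 genes and labelled K700E replicate 2 at 59, against 33 for labelled WT replicate 1 and 29 for labelled K700E replicate 1. Of the 42 lower genes, each cryptic-low library was nearer the K700E mean at 23. Of the 32 higher genes, labelled WT replicate 1 was so at 10 and labelled K700E replicate 1 at 6. The 74 were chosen for a gap at day 4, and the same counts were not made over all genes.

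Among the 10 genes with the largest rise in K700E at day 4, VPS35L had the most reads at day 8. VPS35L is a subunit of the Retriever complex, which returns membrane proteins from endosomes to the cell surface (chromosome 16, 19555240 to 19706793). It measured 6.70, 117, 2.53 and 138 CPM in the day 8 libraries in the order used above, and 6.35, 4.05, 112 and 113 at day 4. Its day 4 change was 4.44 ± 0.26 on the log2 scale (SE, adjusted p = 0.0190, edgeR), while the label change at day 8 was 0.15 (adjusted p = 1.00, edgeR). ADCY2, an adenylyl cyclase, had 0, 801, 0 and 746 reads at day 8, and 0, 0, 1102 and 993 at day 4; a count of 0 allows up to 3 reads. AADAT, a mitochondrial aminotransferase of the kynurenine and lysine pathways, had 0, 489, 2 and 187 reads at day 8. These 3 genes were at or near 0, or low, in both cryptic-low libraries. TEK, the angiopoietin receptor, measured 2.52, 9.83, 2.24 and 8.39 CPM, and SIGLEC14, a sialic acid receptor, 2.56, 11.9, 3.49 and 9.49. RND3 measured 0, 2.89, 0.04 and 1.43, MS4A6A 0, 1.26, 0.15 and 2.79, and GRAMD2B 0, 1.55, 0.38 and 0.73. PALD1 measured 0, 6.09, 3.41 and 13.0 and SEMA6A, a membrane semaphorin, 0, 0.32, 0.33 and 0.98. In SEMA6A the pairs overlapped, and that order depended on scaling.

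Among genes lower in K700E at day 4, several were without reads in the cryptic-high pair alone. WDR72, a WD repeat protein known from enamel formation, had 685, 0, 381 and 0 reads at day 8, and 621, 721, 12 and 8 at day 4. CEP41, a centrosomal protein linked to tubulin glutamylation, had 443, 0, 117 and 0 reads. ZFAND4, a zinc finger protein, had 154, 0, 49 and 0, and ASXL3, a Polycomb-associated factor, 169, 0, 103 and 0. In all 4 genes the reads lay in the cryptic-low libraries, whatever the label. TBX15, a T-box factor, measured 1.18, 0, 1.80 and 0.58 CPM, in the same order.

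Other named genes overlapped, kept the order by little or reversed it. The metallothionein MT2A, which binds zinc and copper, measured 10.0, 9.80, 7.04 and 21.8 CPM at day 8, and MT1X 5.07, 9.98, 5.66 and 7.51; both had been lower in K700E at day 4, and at day 8 the pairs overlapped for MT2A and had the reverse order for MT1X. GLIPR1 measured 42.7, 0.50, 15.5 and 10.2, in the order of day 4, with labelled WT replicate 2 apart and labelled K700E replicate 2 near its replicate 1. RNF180, a ubiquitin ligase, measured 0.03, 0, 0.50 and 0.02, also in the order of day 4 but close to 0. ITGA4, integrin α4, was higher in K700E at day 4 and had the reverse order at day 8, at 5.13, 2.54, 10.2 and 0.68. ITGA2B, the platelet integrin αIIb, measured 92.9, 68.1, 33.3 and 479, with labelled K700E replicate 2 apart from the other 3. MMP2, a gelatinase, measured 12.1, 91.2, 23.1 and 10.3, with labelled WT replicate 2 apart. These single-library differences lie within the cryptic-high pair. ITGA4 and MMP2 are named after their values were seen.

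**Figure D5:**
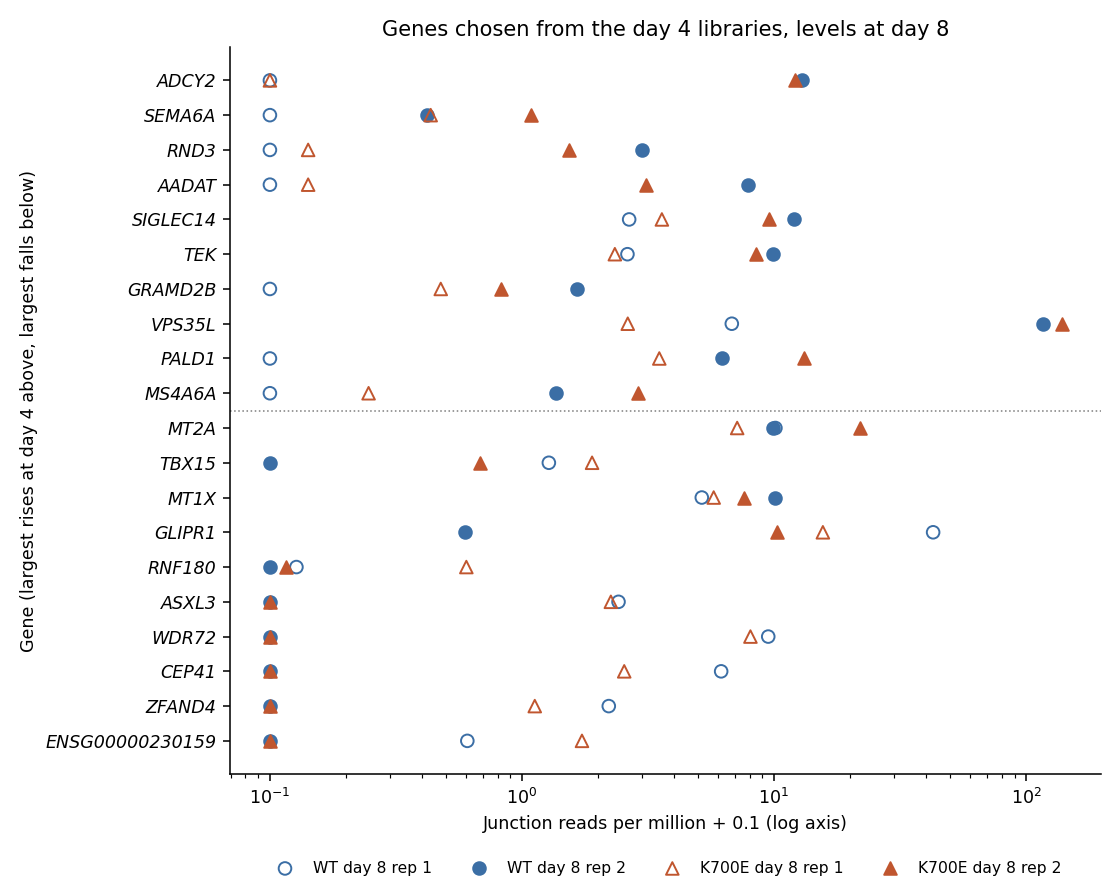
Junction reads as CPM plus 0.1 (x axis, log scale) in the 4 day 8 libraries for the 10 genes with the largest rise (above the dotted line) and the 10 with the largest fall at day 4; filled symbols are the cryptic-high libraries, open symbols the cryptic-low ones. VPS35L sits at 117 and 138 in the filled symbols and at 6.70 and 2.53 in the open ones, while WDR72 shows the opposite order.

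By label no gene passed at day 8: edgeR called 0 of 13990 genes (0%; 408 at an unadjusted p under 0.05), while DESeq2 called 20. The day 8 minus day 4 difference gave 0 of 14902 genes with edgeR (0%; 1371 at an unadjusted p under 0.05), 193 with DESeq2, and 102 with edgeR when every gene with a read was kept. The common biological coefficient of variation of the label fit was 0.516 at day 8 and 0.277 at day 4. Over all 14902 genes the median absolute log2 difference was 0.31 within the cryptic-high pair and 0.35 within the cryptic-low pair, against 0.41 between the labelled WT libraries and 0.30 between the labelled K700E libraries. In the pairs that differ in both label and side of the threshold, it was 0.31 and 0.42. The 0.31 was between labelled WT replicate 2 and labelled K700E replicate 1, which were thus closer than the cryptic-low pair. The 0.42 was between labelled WT replicate 1 and labelled K700E replicate 2. Gene levels as a whole also did not part the labelled K700E libraries more than they parted libraries on the same side of the threshold.

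Splicing factors of the U2 complex are described as a list of 22, of which 21 were tested at day 8 and 0 called by label. In 7 both cryptic-high libraries were above both cryptic-low ones and in 1 both were below, beside 21.2% and 18.5% of all genes. SUGP1, the G-patch protein whose contact with SF3B1 is known to be lost in hotspot mutants, measured 45.1, 92.7, 49.6 and 100 CPM. SF3A1 measured 204, 269, 200 and 236, SF3A2 176, 268, 179 and 245, and SF3A3 353, 435, 352 and 423; they are the 3 subunits of SF3a. SF3B4 measured 94.0, 113, 85.7 and 140, and DDX46, a helicase that acts with SF3b, 164, 216, 150 and 196. SF3B1 itself measured 430, 410, 475 and 416, the member below. These junction counts do not show which allele the SF3B1 reads came from.

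Of the hotspot targets as genes, 29 were tested and 0 called by label at day 8; 4 were above, 10 below and 15 neither, beside 21.2% above and 18.5% below of all genes. PPP2R5A measured 107, 43.0, 110 and 35.5 CPM, and TPP2 266, 120, 230 and 90.2. MAP3K7 measured 122, 88.9, 128 and 91.0, and SEPSECS 12.8, 5.72, 13.98 and 4.85. In these 4 genes both cryptic-high libraries were lower than both cryptic-low ones. DLST was among those above, at 54.1, 79.8, 66.6 and 83.3. Reads of unannotated acceptors are not in the gene sums, and their part in these values was not tested.

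In the other lists 0 members were called by label at day 8, and their counts stand beside 21.2% above and 18.5% below of all genes. For haem synthesis and mitochondrial iron, 3 of 17 were above and 1 below; FECH, which inserts iron into the porphyrin ring, measured 23.8, 45.5, 37.3 and 46.4, and UROD, the uroporphyrinogen decarboxylase, 124, 207, 195 and 293. For nonsense-mediated decay factors, 1 of 10 was above and 4 below; SMG1, the kinase of UPF1, measured 270, 207, 287 and 219. For RNA polymerase II elongation factors, 2 of 18 were above and 6 below; RTF1, of the PAF1 complex family, measured 191, 98.4, 137 and 52.6, and PAF1 83.8, 115, 56.4 and 96.6. The SIN3 and HDAC list had 4 above and 4 below of 14, and the unfolded protein and integrated stress list 1 above and 5 below of 12; DNAJB9, a chaperone of the endoplasmic reticulum, measured 12.0, 4.16, 6.83 and 4.70. In each of these 7 gene lists at least 1 member changes order with another scaling, as given in the closing section.

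Markers of cell identity were checked in the day 8 libraries. Erythroid and K562 markers were present, with GATA1, the erythroid master factor, at 145, 178, 129 and 212 CPM. TFRC, the transferrin receptor, was at 1440, 716, 1016 and 739. The list of 15 summed to 1010 to 1718, most of it TFRC. Globin genes with near-identical copies are uncertain in single values, and are not named here. The labels call the cells epithelial. Of the epithelial list of 9, 4, 4, 5 and 5 members were over 1 CPM in the order used above. CDH1, GRHL2, CLDN4 and ESRP1 were at or near 0. The list summed to 1006, 1092, 1220 and 2598, mostly from KRT8, KRT18 and KRT19. EPCAM and ELF3, also on the list, are not given by value. Megakaryocyte markers, 10 measured, summed to 96.7, 81.9, 42.4 and 520, most of it ITGA2B, with PF4 at 0 in all 4. Lymphoid markers, 6 measured, summed to 27.8, 10.3, 12.2 and 46.6, and myeloid markers, 6 measured, to 411, 223, 250 and 175, with MPO at 0 in all 4. Labelled K700E replicate 2 had the highest megakaryocyte, epithelial and lymphoid sums; the part of these in its other values was not tested.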

How the data were processed

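The deposited files hold counts of uniquely and multiply mapped reads per splice junction for each of 8 libraries, made by STAR 2.7.0e in 1 pass with end-to-end alignment, per the file headers; reads had been handled with cutadapt and the build is hg38, per the submitters' processing notes. Per the labels' protocols the libraries were strand-specific; junction strand here follows the splice motif. Unique-read counts of 860791 junctions were grouped by donor; junctions with 5 reads in at least 2 fitted libraries, where the donor kept 2 or more of them and averaged 20 reads per library, were tested with edgeR 4.0.16 (glmQLFit, diffSpliceDGE, TMM, Benjamini-Hochberg adjustment). Gene sums (94.5% of unique reads) were tested across all genes with glmQLFTest after filterByExpr. Alternatives used limma 3.58.1, DESeq2 1.42.0, RLE factors, other filters, a replicate block and leaving out each library. The fits were tested on simulated data.

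Annotation came from GENCODE release 29, except for the single-read shares of unannotated junctions, which use the release at mapping, 22. Where fits lose a library, a lone library is assumed to vary like the other group. No column lacked a sample. Named acceptors are the hotspot list's (per gene the tested near-upstream acceptor with the largest day 4 rise, a choice made with the data in hand), the 15 near-upstream acceptors and 5 others with the largest rise and the 5 with the largest fall at day 4; named genes are the 10 largest rises and 10 largest falls called at day 4 and the lists (hotspot targets, U2 factors, haem, nonsense-mediated decay, elongation, SIN3 and HDAC, stress, and markers of erythroid, megakaryocyte, epithelial, lymphoid and myeloid cells), from which examples are given. Members and lists were chosen with earlier results of these data known. Cryptic-high and cryptic-low libraries are compared by description alone, because the parting is made from an outcome. A listed target is counted in the totals but not reported here by name.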

Additional observations from a re-analysis of the deposited data

How the results depend on the processing

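The low and high medians of near-upstream acceptor use at day 8 stayed apart under the 4 alternatives run (multi-mapped reads added, 50 donor reads, unannotated acceptors alone, acceptors chosen with limma): 0 to 0.980% in labelled WT replicate 1, 13.3 to 26.7% in labelled WT replicate 2, 0.598 to 1.99% in labelled K700E replicate 1 and 13.6 to 24.4% in labelled K700E replicate 2. The highest value for labelled WT replicate 2, 26.7%, came with the 64 acceptors that limma chose; the cause was not tested.

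Day 4 calls, which chose the acceptors and genes, depended on the fit. Acceptor calls went from 326 to a range of 8 to 110 when 1 library was left out (8 without WT replicate 2, 25 without WT replicate 1, 74 without K700E replicate 2, 110 without K700E replicate 1). Gene calls went from 74 to 1640 with DESeq2, 1567 when every gene with a read was kept, and 0 to 2536 with 1 library left out (0 without either WT library, 1255 without K700E replicate 2, 2536 without K700E replicate 1). At day 8 DESeq2 called 20 genes by label where edgeR called 0. For the day 8 minus day 4 difference, acceptor calls ran from 0 to 38 with 1 library left out, and gene calls were 193 with DESeq2 and 102 with every gene with a read.

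Replicate numbers were not taken to pair libraries, since the labels give no shared culture or batch and each day has 2 pairs: deviations of same-numbered libraries correlated at 0.016 over acceptors and 0.140 over genes at day 4, and at 0.097 and 0.270 at day 8. At day 8 replicate 2 is the cryptic-high library under both labels, so the number and the parting coincide and a block for the number takes up the parting too. With the replicate block, calls were 247 acceptors and 126 genes at day 4, and 0 for both at day 8 and for the difference between days.

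Other scalings of gene levels, added after seeing the data, left the day 8 order of the 74 genes as it was with RLE factors and changed it for SEMA6A alone with library totals, which moved the median of all genes by up to 0.17 (log2). Of 164 listed genes the order changed for 7 with RLE factors (ARID4B, ERGIC3, LEO1, PPP1R15A, SF3B2, SLC25A37 and UPF2) and 13 with library totals; it reversed for 0. Donors with few reads limit single acceptors: half-intervals reached 19.7 points.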
